A study of Mus musculus with 18 samples.

Results

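The mitochondrial genome of the mouse encodes 37 genes, and all 37 were measured in L3–L5 dorsal root ganglia (DRG) after tibial fracture. They were taken as every row whose gene name starts with mt-, 37 of the 36737 rows, and comprised 2 rRNAs, 22 tRNAs and 13 protein-coding genes. The set was selected on measured values as well as on names, because mt-Rnr1 and mt-Rnr2 had been seen to be lower after fracture than after sham surgery. Comparisons with sham are therefore given as a description. Counts of genes past the threshold of the fit over all genes are stated there, but no p, and nothing is read from them for the members. The rule did not use the differences of PDX with no PDX and of the sexes, which were tested, although the Fracture libraries that were low for the rRNAs are also the baseline for PDX.

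Bulk RNA-seq was carried out in outbred CD1 mice, with 1 poly(A)-selected library per mouse. The 3 groups were Sham, Fracture with vehicle, and Fracture+PDX, in which fractured mice were given Protectin DX (PDX), a lipid mediator of the resolution of inflammation. In each group 3 males and 3 females were sampled, all adult animals without a transgene. Fracture was an osteotomy of the left tibia over an intramedullary pin, and ganglia of the fractured groups were taken on day 3, while the labels give no day for Sham.

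Mitochondrial DNA is transcribed from both strands into long precursors that carry many genes each. The tRNAs lie between the other genes, and their excision by mitochondrial RNase P and ELAC2 releases the rRNAs and mRNAs. The 2 rRNAs build the mitochondrial ribosome with imported proteins, and this ribosome makes only the 13 encoded proteins, all subunits of the respiratory chain complexes I, III and IV or of the ATP synthase (complex V). Sensory neurons depend on this machinery for the energy of their long axons.

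The arrangement is compact. Of 36 boundaries between neighbouring members in the deposited coordinates, 12 had no base between the genes, 14 had 1 to 5 bases, 9 were overlaps and 1 was a gap of 32 bases. The light strand held 9 genes, 8 tRNAs and mt-Nd6, and 3 of the overlaps joined genes of opposite strands. mt-Rnr1 (chromosome MT, 70 to 1024) and mt-Rnr2 (1094 to 2675) flank mt-Tv, and mt-Rnr2 is followed without a gap by mt-Tl1 (2676 to 2750) and then by mt-Nd1 (2751 to 3707). All are on the heavy-strand transcript, and all 37 positions were the same in the GENCODE M21 annotation of GRCm38.

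Poly(A) selection by oligo(dT) favors RNA with a tail or with inner runs of A, so the sequences of the rRNAs are shown where such runs occur. The first pair gives each rRNA around its longest run of A, which is in capitals, at 665 to 749 for mt-Rnr1 and 1448 to 1534 for mt-Rnr2 (GRCm38, plus strand). The run was 5 bases in mt-Rnr1 and 7 bases in mt-Rnr2. In mt-Rnr1 the marked run is the first of its length, and another of 5 bases lies near the end of the printed stretch. The longest runs of the tRNAs were 2 to 8 bases and those of the mRNAs 3 to 8 bases, so the rRNAs lay within the range of the other members.
mt-Rnr1: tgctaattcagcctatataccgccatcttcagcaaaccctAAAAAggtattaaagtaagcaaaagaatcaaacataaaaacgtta
mt-Rnr2: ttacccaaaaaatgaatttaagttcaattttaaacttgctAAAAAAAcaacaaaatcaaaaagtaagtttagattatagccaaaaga

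The second pair shows the end of mt-Rnr2, its last 60 bases (2616 to 2675), and the gene that starts at the next base, mt-Tl1, since their counts moved apart below. mt-Tl1 encodes the tRNA for leucine that reads UUA and UUG codons, and its anticodon is in capitals.
mt-Rnr2 end: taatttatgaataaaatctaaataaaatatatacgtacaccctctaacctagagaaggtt
mt-Tl1: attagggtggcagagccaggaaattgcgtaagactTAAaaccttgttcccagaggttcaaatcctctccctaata

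A further set of tRNAs with high counts, all on the light strand, are shown with their anticodons in capitals because their levels could be followed in every mouse. They carry serine (mt-Ts1, 6870 to 6938), glutamate (mt-Te, 14071 to 14139) and proline (mt-Tp, 15356 to 15422). The 3′ end of mt-Ts1 lies under the last bases of mt-Co1 on the other strand, with an overlap of 3 bases. The sequences are those of the reference transcripts, and CD1 mice may carry other bases.
mt-Ts1: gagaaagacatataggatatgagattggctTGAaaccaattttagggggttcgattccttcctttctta
mt-Te: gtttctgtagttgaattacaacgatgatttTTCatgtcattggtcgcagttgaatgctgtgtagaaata
mt-Tp: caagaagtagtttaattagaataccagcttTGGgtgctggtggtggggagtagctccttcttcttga

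Between 63235040 and 82824942 counts were assigned to genes per library, and mt- genes took between 3.22% and 3.92% of them. Summed levels of marker genes showed ganglia of mixed cells in every library, with all 11 genes of DRG sensory neurons, all 5 of Schwann cells and all 3 of satellite glia above 0 throughout. All 12 genes of skeletal muscle were also above 0 in every library, and their sum was very uneven, from 18.6 to 1564 CPM (counts scaled to TMM-adjusted library size). A sum over 500 CPM was seen in 5 libraries, Fracture males 1 and 3, Fracture female 2, Fracture+PDX female 3 and Sham female 2, and results are also given without them. In such bulk tissue, fewer cells of a type and less RNA per cell cannot be told apart.

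Within the sham group, levels per length (FPKM, the fragments scaled by transcript length and library size) differed widely among the members. mt-Co1, the catalytic core of cytochrome c oxidase, was highest, with 6829, 7504 and 8370 FPKM as the lowest, median and highest of 6 mice. The other mRNAs followed with medians from 234 FPKM (mt-Nd3) to 3370 FPKM (mt-Cytb, the only encoded subunit of complex III). The rRNAs, with 251 FPKM for mt-Rnr1 and 220 FPKM for mt-Rnr2, lay below every mRNA but mt-Nd3, whose 218 to 256 FPKM overlapped both. The library type selects for poly(A), so these ranks are not those of the total RNA.

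**Figure D1:**
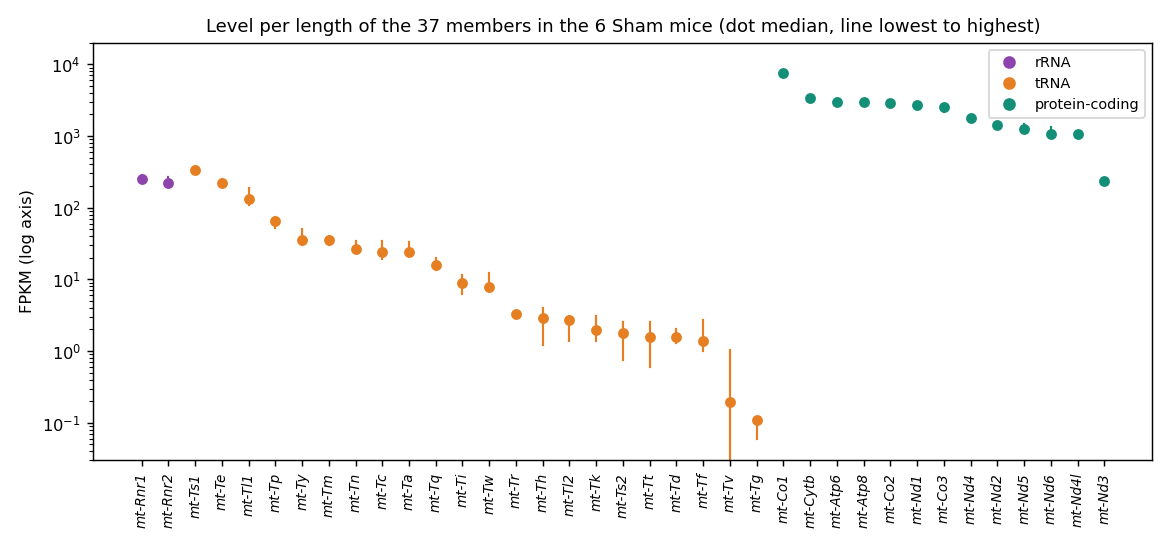
FPKM of the 37 members in Sham mice on a log axis, with dots for the median of 6 mice, lines from the lowest to the highest mouse and colors for the 3 classes. All protein-coding genes but mt-Nd3 (234 FPKM) lie above the rRNAs and tRNAs, mt-Co1 at 7504 FPKM, and the tRNAs spread from 0.11 FPKM (mt-Tg) to 338.5 FPKM (mt-Ts1), with mt-Tv reaching 0 in 1 mouse, below the axis.

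tRNA genes are 59 to 75 bases long, shorter than a usual sequenced fragment, so counts on them may come from fragments that reach into a neighbor or from uncut precursor. Their median FPKM in sham ran from 0.11 to 338.5. mt-Ts1 (median 25.5 CPM over 18 libraries), mt-Te (17.3), mt-Tl1 (13.7), mt-Tp (4.88) and mt-Ty (2.57) had the highest counts, and all but mt-Tl1 are on the light strand. Of the 22 tRNAs, 18 passed the filter on low counts, 17 in Fracture+PDX against Sham, where mt-Tt (4 to 14 counts) also fell out. mt-Tf had 3 to 16 counts per library, mt-Tv 0 to 7 and mt-Td 6 to 13. mt-Tg had 1 count in 16 of the 18 libraries, and 8 and 5 counts in Fracture+PDX females 1 and 3. No fold is given for these genes.

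The counts of 7 mRNAs cannot be cleanly separated from those of nuclear copies of mitochondrial DNA. An annotated gene on chromosome 1 matched mt-Co1, mt-Co2, mt-Atp6, mt-Co3, mt-Nd3, mt-Nd4l and mt-Nd4 at 99% identity or more. The copy held 49.6% to 50% of the counts of the pair for mt-Co2 (Gm28661) and 49.9% to 50.1% for mt-Co3 (Gm28437). For mt-Atp6 (Gm10925) it held 51.3% to 51.5%, for mt-Nd3 (Gm28438) 50.3% to 50.8%, and for mt-Nd4l (Gm10222) 49.9% to 50.2%. For the partial matches it held 28.7% to 30.9% for mt-Nd4 (Gm28439) and 7.35% to 9.06% for mt-Co1 (Gm29216). The levels of these mRNAs are therefore uncertain, mt-Nd3 included. With the 7 copies added to the members, mt- genes took 4.06% to 4.93% of the counts, whereas neither rRNA had a match of 90% identity or more over at least 100 bases among the annotated nuclear transcripts.

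In the comparison of Fracture with Sham, both rRNAs were lower in every fractured mouse than in any sham mouse. mt-Rnr1, the RNA of the small ribosomal subunit, had 247, 264 and 298 CPM as the lowest, median and highest of the Sham mice. In Fracture mice it had 154, 163 and 186 CPM, and in Fracture+PDX mice 150, 168.5 and 199 CPM. Its log2 fold change was -0.69 (SE 0.05) for Fracture and -0.63 (SE 0.05) for Fracture+PDX, 0.622 and 0.648 of the sham level.

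mt-Rnr2, the RNA of the large subunit, had 345, 388 and 464 CPM in Sham, 232, 260.5 and 299 CPM in Fracture, and 234.5, 243 and 264 CPM in Fracture+PDX mice. The log2 fold changes were -0.59 (SE 0.08) and -0.68 (SE 0.07). Neither fractured group overlapped the Sham group for this gene. Both comparisons share the Sham mice and are not independent of each other.

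The same rRNA values are given here by sex, as a description. In males, mt-Rnr1 had 257, 247 and 265 CPM in Sham mice, 158, 167 and 167 CPM in Fracture mice and 168, 169 and 150 CPM in Fracture+PDX mice. In females it had 297.5, 262 and 269 CPM in Sham mice, 186, 159 and 154 CPM in Fracture mice and 182, 199 and 168 CPM in Fracture+PDX mice. The highest fractured mouse was Fracture+PDX female 2, at 199 CPM, still under the lowest sham mouse.

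**Figure D2:**
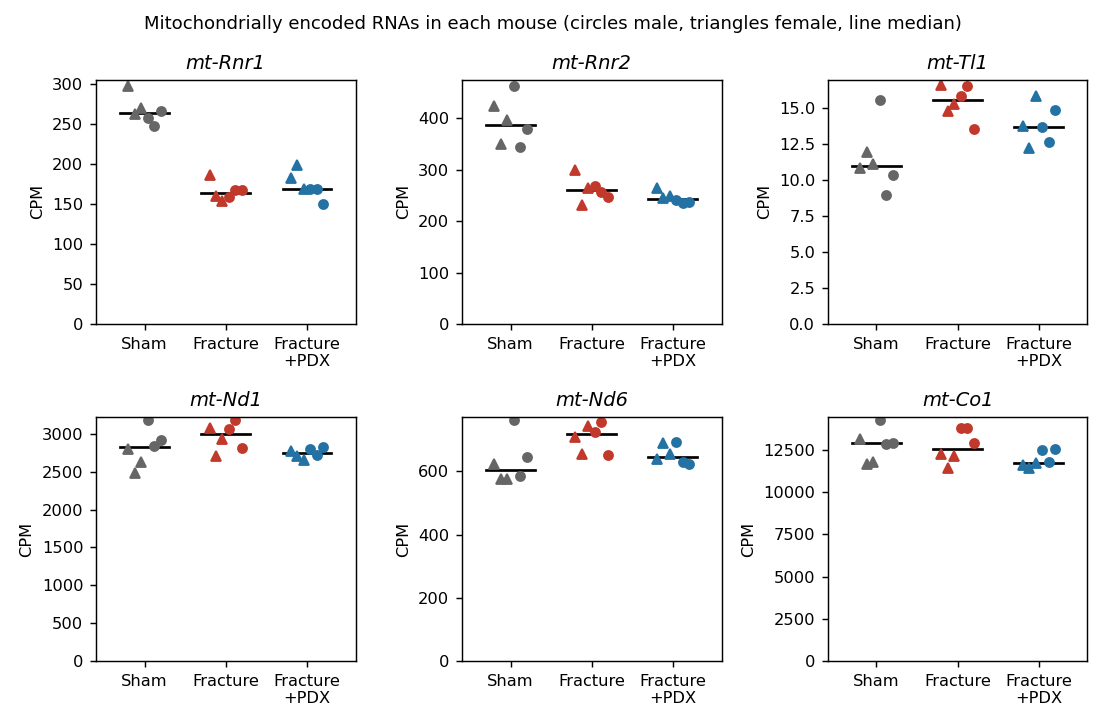
CPM of 6 members in each mouse on axes that start at 0, by group, with circles for males, triangles for females and a line at the group median. mt-Rnr1 and mt-Rnr2 of all 12 fractured mice lie below all 6 Sham mice, and mt-Nd1, mt-Nd6 and mt-Co1 overlap. For mt-Tl1, all 12 fractured mice lie above every Sham mouse but Sham male 1, which lies among them.

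At an adjusted p under 0.05 in edgeR's quasi-likelihood test over all genes, 2 of 33 tested members passed in Fracture against Sham, mt-Rnr1 and mt-Rnr2, both lower. Over all genes, 2.92% passed and 1.83% passed as lower, and 1.53% had groups that did not overlap with Fracture lower. In Fracture+PDX against Sham, 3 of 32 passed, the rRNAs and mt-Nd2, all lower, where 4.50% of all genes passed, 2.32% as lower, and 1.48% had Fracture+PDX below Sham without overlap. Both counts restate the selection for the rRNAs and rest on the same Sham mice, so nothing is read from them against the shares over all genes. mt-Nd2, a subunit of complex I, had 1535, 1609 and 1697 CPM in Sham and 1355, 1447 and 1587 CPM in Fracture+PDX mice, a log2 fold change of -0.15 (SE 0.04). The groups overlapped, and the call was absent in 10 of the 12 fits that left out 1 library, with upper-quartile scaling, with limma on FPKM and with a block for equal mouse numbers.

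The mRNAs lay close to zero. The 13 protein-coding members had log2 fold changes from -0.04 to 0.18 in Fracture against Sham, with a median of -0.01 beside 0.00 (0.0021) over all genes. In Fracture+PDX against Sham they ran from -0.15 to 0.07 with a median of -0.09. Within a library, 16.9 to 20.7 rRNA counts stood beside each 1000 mRNA counts in Sham mice, with a median of 19.0. In Fracture mice the ratio was 11.4 to 14.2 with a median of 12.02, and in Fracture+PDX mice 11.6 to 13.9 with a median of 12.7. Since the rRNAs were selected for being low, this ratio restates the same difference within libraries.

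Among the mRNAs, the largest positive values in Fracture belonged to the neighbors mt-Nd5 and mt-Nd6, subunits of complex I that overlap on opposite strands. mt-Nd6, the only mRNA of the light strand, had 574, 603 and 761 CPM in Sham, 650, 716 and 754 CPM in Fracture and 624, 646 and 690 CPM in Fracture+PDX mice. Its log2 fold change was 0.18 (SE 0.06) in Fracture and 0.07 (SE 0.06) in Fracture+PDX, and the highest mouse of all was Sham male 1. mt-Nd5 had 2356, 2492 and 2911 CPM in Sham and 2511, 2752 and 3125 CPM in Fracture mice (log2 fold change 0.12, SE 0.04). Without Sham male 1, these genes and mt-Tl1 were also past the threshold, 5 members in all, and the number over all genes was 710 in place of 603. That number was unstable, from 213 to 710 when 1 library was left out, and from 498 to 1008 in place of 925 in Fracture+PDX against Sham.

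mt-Tl1, next to mt-Rnr2 on the same transcript, stood on the other side of zero. It had 8.95, 11 and 15.6 CPM in Sham, 13.6, 15.6 and 16.6 CPM in Fracture and 12.2, 13.7 and 15.9 CPM in Fracture+PDX mice. The log2 fold changes were 0.43 (SE 0.11) and 0.27 (SE 0.12), and the overlap came from Sham male 1 at 15.6 CPM, whereas the next Sham mouse had 11.97 CPM. For each 1000 counts of mt-Rnr2 there were 25.7 to 34.2 counts of mt-Tl1 in Sham, 54.9 to 64.5 in Fracture and 50 to 63.8 in Fracture+PDX mice. The denominator was selected for being low against Sham, so this ratio restates that difference in part. Against mt-Nd1 on its other side, the ratio was 3.15 to 4.90 per 1000 in Sham, 4.83 to 5.49 in Fracture and 4.535 to 5.99 in Fracture+PDX mice, and the ranges overlapped.

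**Figure D3:**
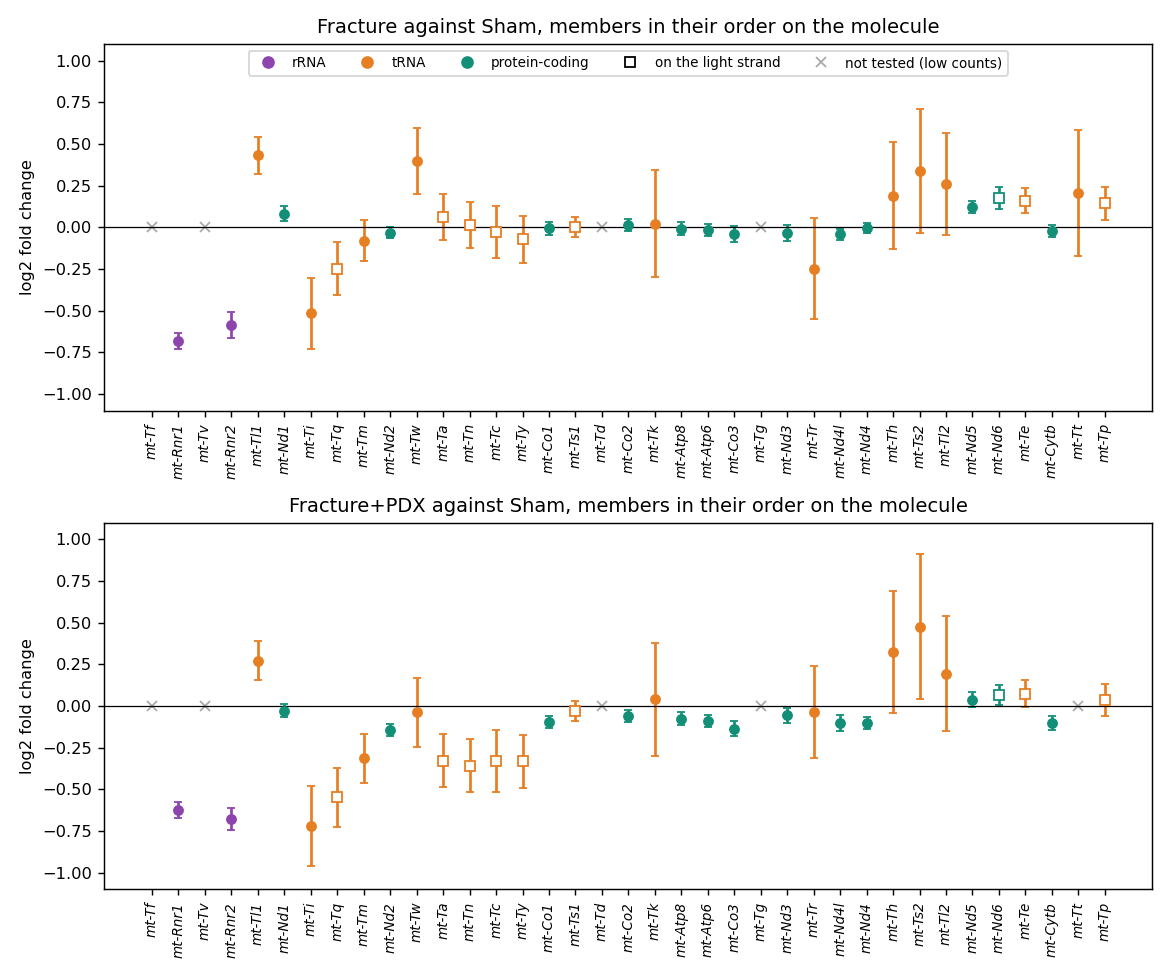
Log2 fold change with its SE for the members in their order on the molecule, Fracture against Sham above and Fracture+PDX against Sham below, with open squares for genes of the light strand and crosses for genes too low to test. mt-Rnr1 and mt-Rnr2 lie between -0.59 and -0.69, mt-Tl1 lies at 0.43 and 0.27, and the mRNAs stay between -0.15 and 0.18.

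The tRNAs differed in their errors, with an SE from 0.06 (mt-Ts1) to 0.38 (mt-Tt) in Fracture against Sham. There, 12 of 18 tested tRNAs, mt-Tl1 included, lay above 0 and 6 below, and the median was 0.04. In Fracture+PDX against Sham, 7 of 17 lay above 0 and the median was -0.04, or -0.32 among those with at least 10 counts in every library. mt-Ti, for isoleucine, named after its values were seen, had the lowest Fracture value at -0.52 (SE 0.21), with 0.480 to 0.870 CPM in Sham and 0.412 to 0.578 CPM in Fracture mice. mt-Te had 14.9 to 19.4 CPM in Sham and 16.5 to 20.4 CPM in Fracture mice, a log2 fold change of 0.16 (SE 0.08). mt-Ts1 had 23.2 to 29.5 and 23.1 to 28.1 CPM, with a log2 fold change of 0.00 (0.0005, SE 0.06). mt-Tp and mt-Ty were at 0.14 (SE 0.10) and -0.07 (SE 0.14). With PDX, against Sham, mt-Ti was at -0.72 (SE 0.24) and mt-Tq, for glutamine, at -0.55 (SE 0.18). The neighbors mt-Ta, mt-Tn, mt-Tc and mt-Ty lay between -0.33 and -0.36 in that comparison, and mt-Tq, mt-Ta, mt-Tn and mt-Tc were named after their values were seen. None was past the threshold in edgeR, whereas limma on FPKM put mt-Tq past it.

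**Figure D4:**
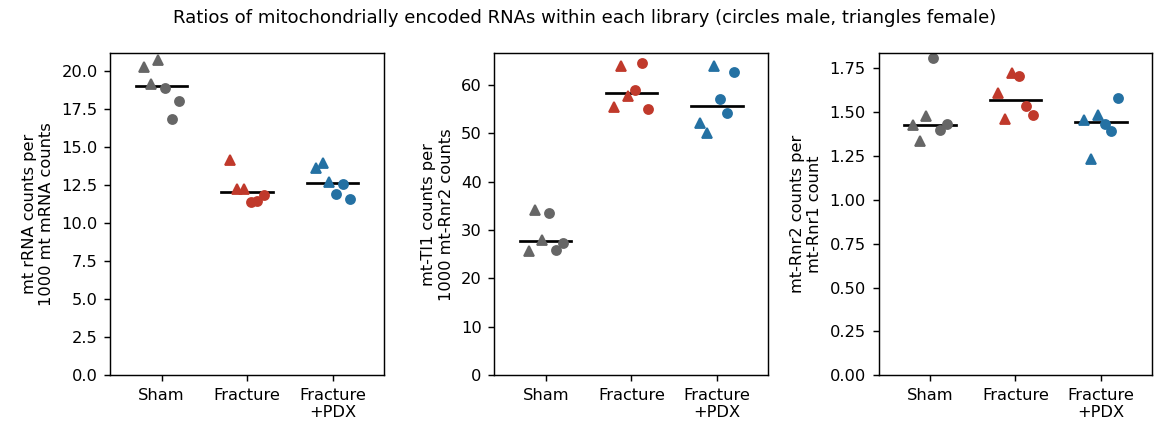
Ratios of counts within each library by group, each axis starting at 0, with circles for males, triangles for females and a line at the median. rRNA per 1000 mRNA counts has group medians of 19.0, 12.02 and 12.7 from left to right, mt-Tl1 per 1000 mt-Rnr2 counts has 27.7, 58.3 and 55.5 (both ratios hold the selected rRNAs), and mt-Rnr2 per mt-Rnr1 count has 1 high Sham male at 1.80.

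Summed cell type markers differed between these groups too. The 11 DRG neuron genes summed to 15050 to 16570 CPM in Sham, 16680 to 17700 CPM in Fracture and 15930 to 18290 CPM in Fracture+PDX mice, so that Fracture lay above Sham in every mouse. The 6 macrophage genes summed to 83.04 to 95.8, 60.1 to 79.1 and 61.85 to 87.2 CPM, with Fracture below Sham in every mouse. Schwann cell genes (5) ranged over 10140 to 23520, 11930 to 18360 and 14650 to 16450 CPM, and red blood cell genes (6) over 774 to 2209, 969 to 1346 and 497 to 2854 CPM. The 3 satellite glia genes were at 499 to 646, 567.5 to 598 and 551 to 718 CPM and the 6 neutrophil genes at 75.2 to 335, 78.9 to 169 and 71.6 to 416 CPM. Of 4 adipocyte genes, 3 were above 0 in every library, with sums of 3.55 to 22.7, 2.80 to 10.8 and 2.89 to 24.3 CPM. The part of these cell types in the rRNA levels was not tested.

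RNAs known to lack a poly(A) tail were also summed. The 7 small non-coding RNAs found summed to 2.79 to 6.96 CPM in Sham, 2.215 to 6.68 CPM in Fracture and 2.97 to 4.89 CPM in Fracture+PDX mice. The 9 replication-dependent histone genes summed to 13.04 to 23.6, 13 to 23.4 and 18.2 to 22.25 CPM. The sums of both lists overlapped between the groups, and 2 of the 7 small RNAs were at 0 in most libraries. Against Sham, all 3 tested small RNAs lay below 0, with median log2 fold changes of -0.09 in Fracture and -0.20 in Fracture+PDX. Of 6 tested histone genes, 5 lay below 0 and 1 above in each comparison, with medians of -0.19 and -0.15. In both lists 0 genes were called. Carry-over of RNA without a tail was not tested as a part of the rRNA levels. For muscle, the sums were 37.4 to 791 CPM in Sham, 68.1 to 1564 CPM in Fracture and 18.6 to 746 CPM in Fracture+PDX mice. Without the 5 libraries of high muscle sum, the log2 fold change was -0.68 for mt-Rnr1 and -0.58 for mt-Rnr2 in Fracture, and -0.62 and -0.72 in Fracture+PDX mice. In that smaller Fracture comparison only mt-Rnr1 passed the threshold, with 3 Fracture and 5 Sham mice left.

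Next, PDX was tested in fractured mice. In Fracture+PDX against Fracture, 0 of 33 tested members passed an adjusted p of 0.05 in edgeR's quasi-likelihood test, as did 0% of the 20562 genes tested. The lowest adjusted p of a member was 0.887. DESeq2 and limma on log2(FPKM + 1) also called 0 members, whereas 15 genes in all were called by DESeq2. At an unadjusted p under 0.05 there were 12 members, all lower with PDX, where 5.41% of all genes were at that level, 2.55% as lower. The count was 6 without Fracture male 1 or Fracture+PDX male 2, 7 without Fracture+PDX male 3, and 8 to 15 without any other library. The 12 share libraries and, in part, precursors, and are not independent.

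All 13 mRNAs had log2 fold changes below 0, from -0.02 for mt-Nd3 to -0.11 for mt-Nd2, with a median of -0.08 beside 0.00 (-4.47e-05) for all genes. mt-Nd1, a core subunit of complex I, had 2700, 2998 and 3175 CPM in Fracture and 2651, 2741 and 2820 CPM in Fracture+PDX mice. The difference was -0.11 (SE 0.04, adjusted p = 0.887, edgeR). mt-Nd2 had 1477, 1575 and 1673 CPM against 1355, 1447 and 1587 CPM, also -0.11 (SE 0.04, adjusted p = 0.887, edgeR). Neither gene passed the threshold, and the groups overlapped for both.

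The other complex I genes were mt-Nd4 at -0.10 (SE 0.03), mt-Nd6 at -0.11 (SE 0.04), mt-Nd5 at -0.08 (SE 0.04) and mt-Nd4l at -0.06 (SE 0.06). mt-Cytb of complex III had 3826 to 4295 CPM in Fracture and 3581 to 4009 CPM with PDX (-0.08, SE 0.04). In complex IV, mt-Co1 had 11410, 12550 and 13770 CPM in Fracture and 11410, 11710 and 12520 CPM with PDX (-0.09, SE 0.03). mt-Co2 was at -0.08 (SE 0.03) and mt-Co3 at -0.10 (SE 0.04). In complex V, mt-Atp6 was at -0.08 (SE 0.03) and mt-Atp8 at -0.07 (SE 0.04). With the nuclear copies added, the 7 genes that have one lay between -0.02 and -0.09.

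All 12 muscle genes lay below 0 with PDX, with a median log2 fold change of -1.89 and 0 called. The 3 Fracture libraries with a high muscle sum belong to this comparison. Without them and Fracture+PDX female 3, the median of the 13 mRNAs was -0.10. The part of muscle in these values was not tested.

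For the rRNAs, mt-Rnr1 differed by 0.06 on the log2 scale between Fracture+PDX and Fracture (two-sided exact permutation test over 924 labelings, p = 0.385, n = 6 and 6) and mt-Rnr2 by -0.09 (exact permutation, p = 0.139). With 1 library left out, the value of mt-Rnr1 ran from 0.02 (without Fracture+PDX female 2) to 0.10 (without Fracture+PDX male 3). The ratio of mt-Rnr2 to mt-Rnr1 counts was 1.46, 1.57 and 1.72 in Fracture and 1.23, 1.44 and 1.58 in Fracture+PDX mice. Without the libraries of high muscle sum, mt-Rnr2 differed by -0.16 (exact permutation, p = 0.0357), and without Fracture female 2 alone by -0.12 (exact permutation, p = 0.0281), both unadjusted. In the other 13 of 15 alternatives for mt-Rnr2 the unadjusted p ran from 0.0736 to 0.275 (exact permutation). The log2 ratio differed by -0.15 (exact permutation, p = 0.0368), but with p = 0.11 after adjustment over the 3 values tested (exact permutation). The smallest p that 6 and 6 mice allow is 0.00216. It is larger without the libraries of high muscle sum, where 3 Fracture mice and 1 Fracture+PDX mouse were left out. The ranges overlapped, the lowest mouse being Fracture+PDX female 2. Without that mouse the difference was -0.11 (exact permutation, p = 0.0736), and without Fracture male 1, female 1 or female 3, or Fracture+PDX male 1 or male 2, the unadjusted p also lay above 0.05. It was 0.0714 (exact permutation) without the libraries of high muscle sum, where the difference was -0.20 (-0.1965).

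Of the tRNAs, 14 of 18 lay below 0 with PDX, with a median of -0.18, and 0 passed. The 3 at an unadjusted p under 0.05 were mt-Tw (-0.44, SE 0.20), mt-Ta (-0.39, SE 0.16) and mt-Tn (-0.37, SE 0.17), which were picked out after their values were seen. They carry tryptophan, alanine and asparagine and lie side by side between mt-Nd2 and mt-Co1. mt-Ta had 1.885, 1.956 and 2.48 CPM in Fracture and 1.09, 1.55 and 1.90 CPM in Fracture+PDX mice. mt-Tn had 1.99, 2.13 and 2.67 CPM and 1.203, 1.67 and 2.19 CPM. For both, Fracture+PDX male 2 was the lowest of all 18 mice and Fracture+PDX female 2 the next. mt-Tl1 was at -0.16 (SE 0.07), mt-Ts1 at -0.03 (SE 0.06), mt-Te at -0.09 (SE 0.07), mt-Tp at -0.11 (SE 0.08) and mt-Ty at -0.26 (SE 0.16).

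**Figure D5:**
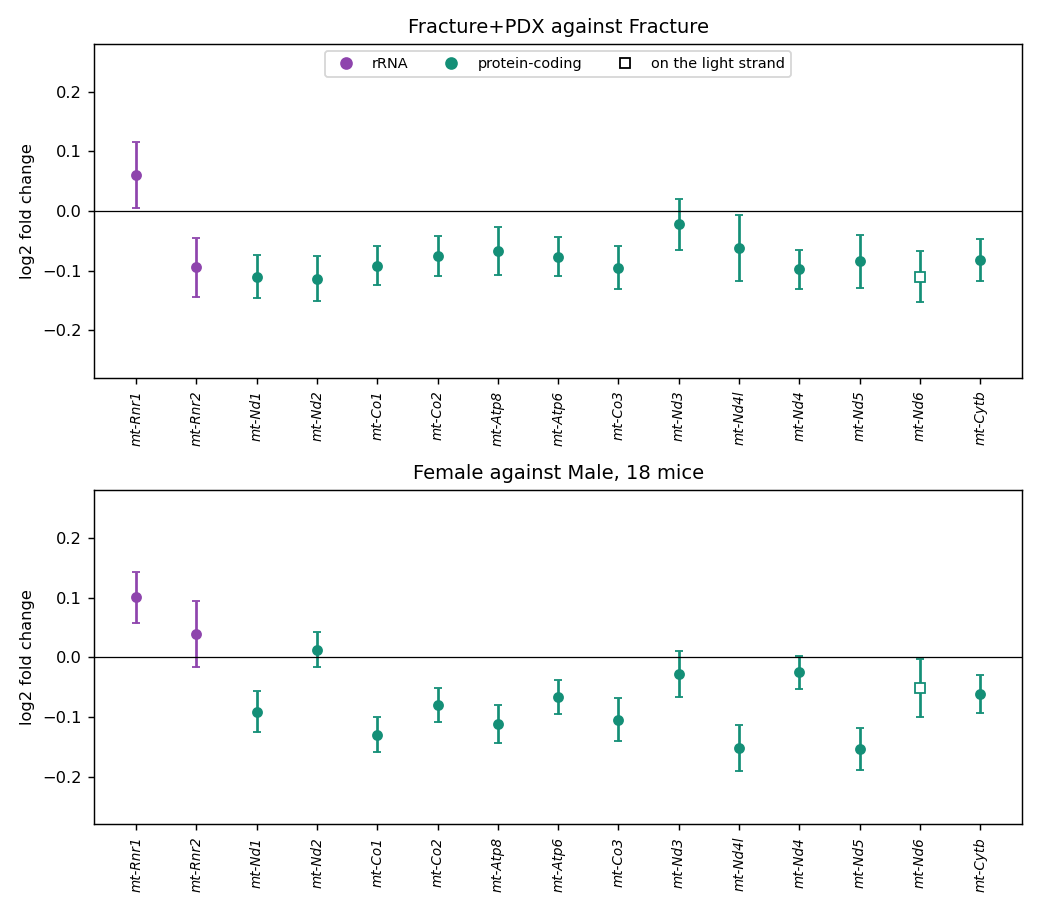
Log2 fold change with its SE for the 2 rRNAs and 13 mRNAs, Fracture+PDX against Fracture above and Female against Male below, on the same scale, with an open square for mt-Nd6 on the light strand. All 13 mRNAs lie below 0 with PDX, and 12 of 13 lie below 0 in females, from -0.15 to 0.01.

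The sexes were compared over all 18 mice with group as a covariate. Of 33 tested members, 0 passed an adjusted p of 0.05 in edgeR's quasi-likelihood test, where 0.297% of all genes passed. DESeq2 called 4 members, mt-Co1, mt-Atp8, mt-Nd5 and mt-Nd4l, all lower in females, but it called 330 genes in all where edgeR called 61. The test of limma on log2(FPKM + 1) called 0. At an unadjusted p under 0.05 there were 9 members, 8 of them mRNAs lower in females, where 10.4% of all genes were at that level and 5.36% as lower. These 9 share libraries and, in part, precursors, and are not independent. The count of members at that level was 5 without the libraries of high muscle sum and 4 with only the 6 Sham libraries in the fit. Of the 13 mRNAs, 12 lay below 0, with a median of -0.08, and mt-Nd2 at 0.01 was the exception.

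mt-Nd5 had the lowest adjusted p. Its levels in Sham were 2911, 2538 and 2751 CPM in males and 2445, 2370 and 2356 CPM in females. In Fracture mice they were 3125, 3002 and 2814 CPM and 2511, 2563 and 2690 CPM, and in Fracture+PDX mice 2792, 2631 and 2617 CPM and 2612, 2345 and 2731 CPM. All females lay below all males in Sham and in Fracture, but not with PDX, and the difference was -0.15 (SE 0.03, adjusted p = 0.0678, edgeR).

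mt-Co1 had 12850 to 14270 CPM in Sham males and 11660 to 13110 CPM in Sham females. It had 12880 to 13770 against 11410 to 12220 CPM in Fracture, and 11740 to 12520 against 11410 to 11690 CPM in Fracture+PDX mice. Females lay below males without overlap in both fractured groups (-0.13, SE 0.03, adjusted p = 0.0724, edgeR). mt-Nd4l had medians of 356 CPM over 9 males and 320 CPM over 9 females (-0.15, SE 0.04, adjusted p = 0.114, edgeR). Without Fracture+PDX female 3, mt-Nd5 and mt-Nd4l passed the threshold, and without Sham female 1, mt-Co1 did.

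The rRNAs were on the other side of zero in this comparison, mt-Rnr1 at 0.10 (SE 0.04, adjusted p = 0.404, edgeR) and mt-Rnr2 at 0.04 (SE 0.06, adjusted p = 0.875, edgeR). All 12 muscle genes lay above 0 in females, with a median log2 fold change of 1.22 and 0 called. Without the 5 libraries of high muscle sum, the median of the mRNAs was -0.06. For the interaction of sex with PDX, 0 of 33 members and 0.00486% of all genes passed in edgeR, and all 13 mRNAs lay above 0, from 0.02 to 0.18. Of all genes, 49.62% lay below 0 for the interaction. All 12 muscle genes also lay above 0, with a median of 2.795 and 0 called, and the part of muscle was not tested. The 13 mRNAs share libraries and are not independent. An unadjusted p under 0.05 was found for 1 member, mt-Nd2 (0.16, SE 0.07, adjusted p = 0.998), and for 4.14% of all genes. DESeq2 and limma on log2(FPKM + 1) also called 0 members for it.

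Nuclear genes supply everything else that mitochondria need. Of 228 nuclear genes in 8 lists, all tested, 1 was called higher and 1 lower in Fracture against Sham, and 2 higher and 1 lower in Fracture+PDX against Sham, where 2.92% and 4.50% of all genes were called. Gars, the glycyl-tRNA synthetase of cytosol and mitochondria, had 252, 269 and 274 CPM in Sham, 289.5, 299 and 306.5 CPM in Fracture and 290, 299 and 310 CPM in Fracture+PDX mice (log2 fold changes 0.16 and 0.17, SE 0.03 and 0.03). Dna2, a nuclease and helicase of DNA replication, had 2.82, 3.04 and 3.92 CPM in Sham and 1.46, 1.76 and 2.32 CPM in Fracture mice (-0.81, SE 0.14). With PDX it had 1.26 to 3.18 CPM (-0.76, SE 0.19), and Rars2, the mitochondrial arginyl-tRNA synthetase, was at 0.21 (SE 0.05).

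By role, the 19 genes of mtDNA transcription and replication had a median log2 fold change of -0.02 in Fracture and -0.07 in Fracture+PDX against Sham. The 37 genes of mitochondrial RNA processing, modification and decay were at 0.03 and 0.00 (-0.0041), and 0 were called. The 20 tRNA synthetases were at 0.04 and 0.00 (-0.00078). The 81 mitochondrial ribosomal proteins, partners of the 2 rRNAs, were at 0.02 and 0.02, and 0 were called.

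The nuclear subunits of the respiratory chain had small positive values against Sham. In Fracture, 59 of 71 lay above 0 with a median of 0.05, and in Fracture+PDX 60 of 71 with a median of 0.06, with 0 called in each. Of all genes, 49.34% and 50.38% lay below 0 in these comparisons. The DRG neuron genes were also higher in Fracture than in Sham (sums of 16680 to 17700 against 15050 to 16570 CPM), and their part in these values was not tested. The medians in Fracture were 0.06 for complex I (36 genes), 0.05 for complex III (9), 0.08 for complex IV (11) and 0.05 for complex V (15). The 13 encoded subunits of the same complexes had medians of -0.01 and -0.09. In Fracture+PDX against Fracture, 0 of the 228 nuclear genes were called in edgeR, the 8 list medians lay between -0.04 and 0.03, and the 71 subunits had a median of -0.01. Between the sexes 58 of the 71 lay above 0 in females, with a median of 0.03 and 0 called, beside 1 of the 13 encoded mRNAs.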

How the data were processed

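The 18 libraries of the 3 groups, 3 males and 3 females in each, were grouped by the treatment and the sex in their labels. The authors deposited raw counts per gene without normalization, and FPKM values scaled for length and library. Per the submitters' processing notes, cutadapt 1.10, FastQC, HISAT2, StringTie and mm10 were used. The kit was strand-specific, but a strand setting for counting is not given in the sources used here, so overlapping and antisense genes are uncertain. Columns named Con were read as Sham. The members and gene lists were chosen with earlier results of these data known.

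The counts were tested with edgeR 4.0.16 under R 4.3.3 (filterByExpr with a minimum count of 10 and minimum total of 15, TMM, robust quasi-likelihood test) on the 12 libraries of a comparison with sex as covariate, or on all 18 with group as covariate for the sexes. Adjustment (Benjamini-Hochberg) was over all genes tested, and p-values measure the spread between these mice. Exact permutation tests used log2 CPM with a prior count of 2. DESeq2 1.42.0, limma 3.58.1 on log2(FPKM + 1) and log2(FPKM + 0.1), scaling, filters, covariates, a replicate block and each library left out were alternatives. Leaving out libraries over 500 CPM of muscle genes and adding nuclear copies were chosen after seeing the data. The fit was tested on simulated counts.

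Named were both rRNAs, the 13 mRNAs, the 5 tRNAs of highest median CPM, those too low to test, and up to 3 called genes per direction and nuclear list. Sequences came from GENCODE M21 transcripts, and copies were sought among its nuclear transcripts with BLAST+ 2.17.0. Among 45 pairs of libraries of a group 0 were identical, and all differed by more than sampling noise (chi-square per gene of at least 18.41).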

Additional observations from a re-analysis of the deposited data

Results flagged for a closer look

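Dixon's test for a mouse far from the other 5 of its group was applied to 69 sets of values (the rRNAs, the mRNAs, 5 tRNAs and 3 shares or ratios, in each group). It picked out 2, and chance picks out about 1 in 20. In Fracture female 1, 14.2 rRNA counts stood beside each 1000 mitochondrial mRNA counts, whereas the next Fracture mouse had 12.2. In Sham male 1, mt-Rnr2 had 1.80 counts for each count of mt-Rnr1, whereas the next Sham mouse had 1.48.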

How the results depend on the processing

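The log2 fold changes of mt-Rnr1 and mt-Rnr2 against Sham kept their direction under every alternative run, from -0.72 to -0.66 and from -0.63 to -0.53 in Fracture and from -0.66 to -0.60 and from -0.72 to -0.62 in Fracture+PDX. Both rRNAs were selected for being lower than in Sham in these same libraries. The ranges therefore describe the spread between settings and are no further support for the direction. mt-Rnr2 in Fracture fell short of the threshold (-0.58) only without the 5 libraries over 500 CPM of muscle genes, where 10 genes in all were called with 8 libraries left. The number of members called in Fracture against Sham was 4 with DESeq2 (mt-Tl1 and mt-Nd5 added), 1 without those 5 libraries, and 2 to 5 when 1 library was left out. It was 3 with no covariate and 3 with all 18 libraries in the fit, with mt-Tl1 added in both. For Fracture+PDX against Sham it was 4 with DESeq2 (mt-Co3 added) and 2 to 4 when 1 library was left out, with mt-Co3 added without Sham female 3 and mt-Tl1 in place of mt-Nd2 without Sham male 1, and limma put mt-Tq in place of mt-Nd2. For the sexes it was 4 with DESeq2, 1 without a filter on low counts, and 0 to 2 when 1 library was left out. In Fracture+PDX against Fracture no alternative called a member. With 1 library left out, the log2 difference of the ratio of mt-Rnr2 to mt-Rnr1 ran from -0.18 to -0.11 and that of mt-Rnr2 from -0.12 to -0.0499, on either side of an unadjusted p of 0.05. Without the 5 libraries of high muscle sum these were -0.1965 (p = 0.0714, exact permutation) and -0.1601 (p = 0.0357, exact permutation). The cause was not tested. With equal mouse numbers as a replicate block, 0, 2 and 2 members were called in Fracture+PDX against Fracture, Fracture against Sham and Fracture+PDX against Sham, and mt-Rnr1 was at 0.06, -0.69 and -0.63. Over all genes the block called 118 in place of 603 in Fracture against Sham and 486 in place of 925 in Fracture+PDX against Sham. DESeq2 called 1511 and 1620, and 330 in place of 61 for the sexes. With limma on log2(FPKM + 1), 73.5% of calls were lower in Fracture against Sham in place of 62.7%, 64.5% in place of 51.7% in Fracture+PDX against Sham, and 37% in place of 60.7% in females. Of 12 same-numbered pairs of mice with Sham and 6 of Fracture+PDX with Fracture, 1 had a correlation over 0.1. Among mice of the same sex, the same number was the best match in 4 of 6 cases for Fracture+PDX with Fracture. For Fracture with Sham it was 4 of 6, and for Fracture+PDX with Sham 1 of 6. The labels name no pairing, and whether these mice share more than a number was not settled. The block could not be fitted for the sexes, since each mouse number lies within a sex. Of the 22 tRNAs, 10 had a median under 20 counts, which limits what can be said of them.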
